A study of Homo sapiens with 6 samples.

Results

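The genes described here encode assembly factors of the large (60S) ribosomal subunit, proteins that build the subunit and then leave it. They are the genes of a list of 52 symbols, and 51 of these have a row among the 17929 genes of the deposited table. BOP1 is not analysed here. All 51 are protein-coding genes, all 51 passed the filter on low values, and 50 of them stood above 10 CPM in all 6 libraries, where CPM is the deposited signal, a gene's reads scaled to the effective size of its library. The exception was PPAN.

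The large subunit is assembled in the nucleolus around a long ribosomal RNA precursor. Early factors fold and trim that precursor and bring in the 5S particle, remodelling ATPases and GTPases then strip factors off, and late factors carry the particle through the nuclear pore and make it fit to join the small subunit in the cytoplasm. Pluripotent cells divide fast and have large nucleoli, and DDX18 is itself a nucleolar RNA helicase of the DEAD-box family whose yeast relative acts in this pathway.

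Messenger RNA was sequenced from H9 and HES2, both established human embryonic stem cell lines, which were kept on inactivated mouse embryonic fibroblast feeders and infected with virus carrying a short hairpin RNA. Each line gave 3 libraries, all collected on day 4: a control with a hairpin to luciferase (shLuc), and knockdowns of DDX18 by the hairpin shDDX18#1 or the hairpin shDDX18#3. The design text gives the aim as finding what DDX18 does in keeping stem cell identity. The labels do not state separate cultures or which promoter drove the hairpins, so the p-values below measure only the spread between these 6 libraries, which may be technical. In the comparison of all knockdown libraries with shLuc, that spread also holds any difference between the hairpins and between the responses of the lines. The comparisons of single hairpins take the hairpin difference out of it. Totals ran from 2668179 to 4271741 reads, so that 1 read was worth 0.224 to 0.408 CPM. In bulk libraries fewer cells of a type and less RNA per cell cannot be told apart.

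DDX18, which is not on the list, had 152.8 CPM in the H9 control against 19.2 with shDDX18#1 and 47.3 with shDDX18#3, and in HES2 161 CPM against 39.3 and 60.4. Its log2 fold change in knockdown against shLuc was -2.00 (SE 0.35, limma adjusted p = 0.0109). Of 16 stem cell marker genes, 15 were lower in all 4 knockdown libraries than in both shLuc libraries, none was at 0 in any library, and their summed level went from 6298 to 2092 and 3012 CPM in H9 and from 6183 to 2507 and 3222 CPM in HES2. Of 22 fibroblast and feeder markers, 14 were higher in all 4 knockdown libraries, DCN was at 0 in a library, and the summed level went from 7500 to 104804 and 38009 CPM in H9 and from 2966 to 35442 and 21588 CPM in HES2. By the same rule, 20.9% of all genes tested were lower in all 4 knockdown libraries than in both shLuc libraries, and 19.8% were higher. The markers with the smallest p were TERF1 (-2.14), PRDM14 (-2.13) and DNMT3B (-1.95) of the stem cell list and ACTA2 (4.08), COL1A1 (3.94) and COL5A1 (3.20) of the other. Not all of the fibroblast and feeder list rose. Its log2 fold changes ran from -0.50 to 4.08, and 7 of the 22 did not pass (limma adjusted p under 0.05). The part of these marker shifts in the results below was not tested.

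Transcripts of 15 of the 51 assembly factors fell in the knockdown libraries, 1 rose (SBDS) and 35 did not pass the test (limma adjusted p under 0.05 over all genes). Across all 17768 genes tested, 15.9% were called, 6.26% lower and 9.6% higher. These and later shares over all genes include low genes, since 1 CPM in 2 libraries sufficed for testing. Of the members 50 stood above 10 CPM in all 6, and what this adds to the gaps was not tested. The median log2 fold change was -0.48 over the members and -0.018 over all genes, and 48 of the 51 members lay below 0. The deepest fall was that of URB2, at -1.25, and the only member above 0.2 was SBDS, at 0.90. In 38 members all 4 knockdown libraries were below both shLuc libraries, in 1 they were all above, and in 12 the groups overlapped, against 20.9% of all genes below and 19.8% above. Below its own line's shLuc in all 4 knockdown libraries were 41 members and 27.9% of all genes. The authors' deposited table, at a false discovery rate under 0.05, calls 20 members lower and 1 higher (9.42% and 13.5% of its genes), and these include all 16 called here.

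The number called rests on single libraries. The direction of the 16 called members could not change on leaving out 1 library, since their knockdown libraries all lay on 1 side of both controls. Without H9 shLuc or without HES2 shLuc, where only the other line informs the effect, 0 members were called, without HES2 shDDX18#1 only RRP1B was, and without HES2 shDDX18#3 it was 7, while all 16 kept their sign in each case. Over all genes those 4 fits called 46 lower and 439 higher, 7 and 185, 243 and 771, and 488 and 1064. DDX18 itself missed the threshold without either shLuc library, and MRTO4 did without either H9 knockdown library. Without the cell line as a block 6 members were called (over all genes 409 lower and 790 higher) and with no intensity trend in limma 0 (342 and 886). With libraries scaled to equal medians 22 members were called and their median was -0.58, and the calls over all genes shifted from 1706 higher and 1113 lower to 1461 and 1725.

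**Figure D1:**
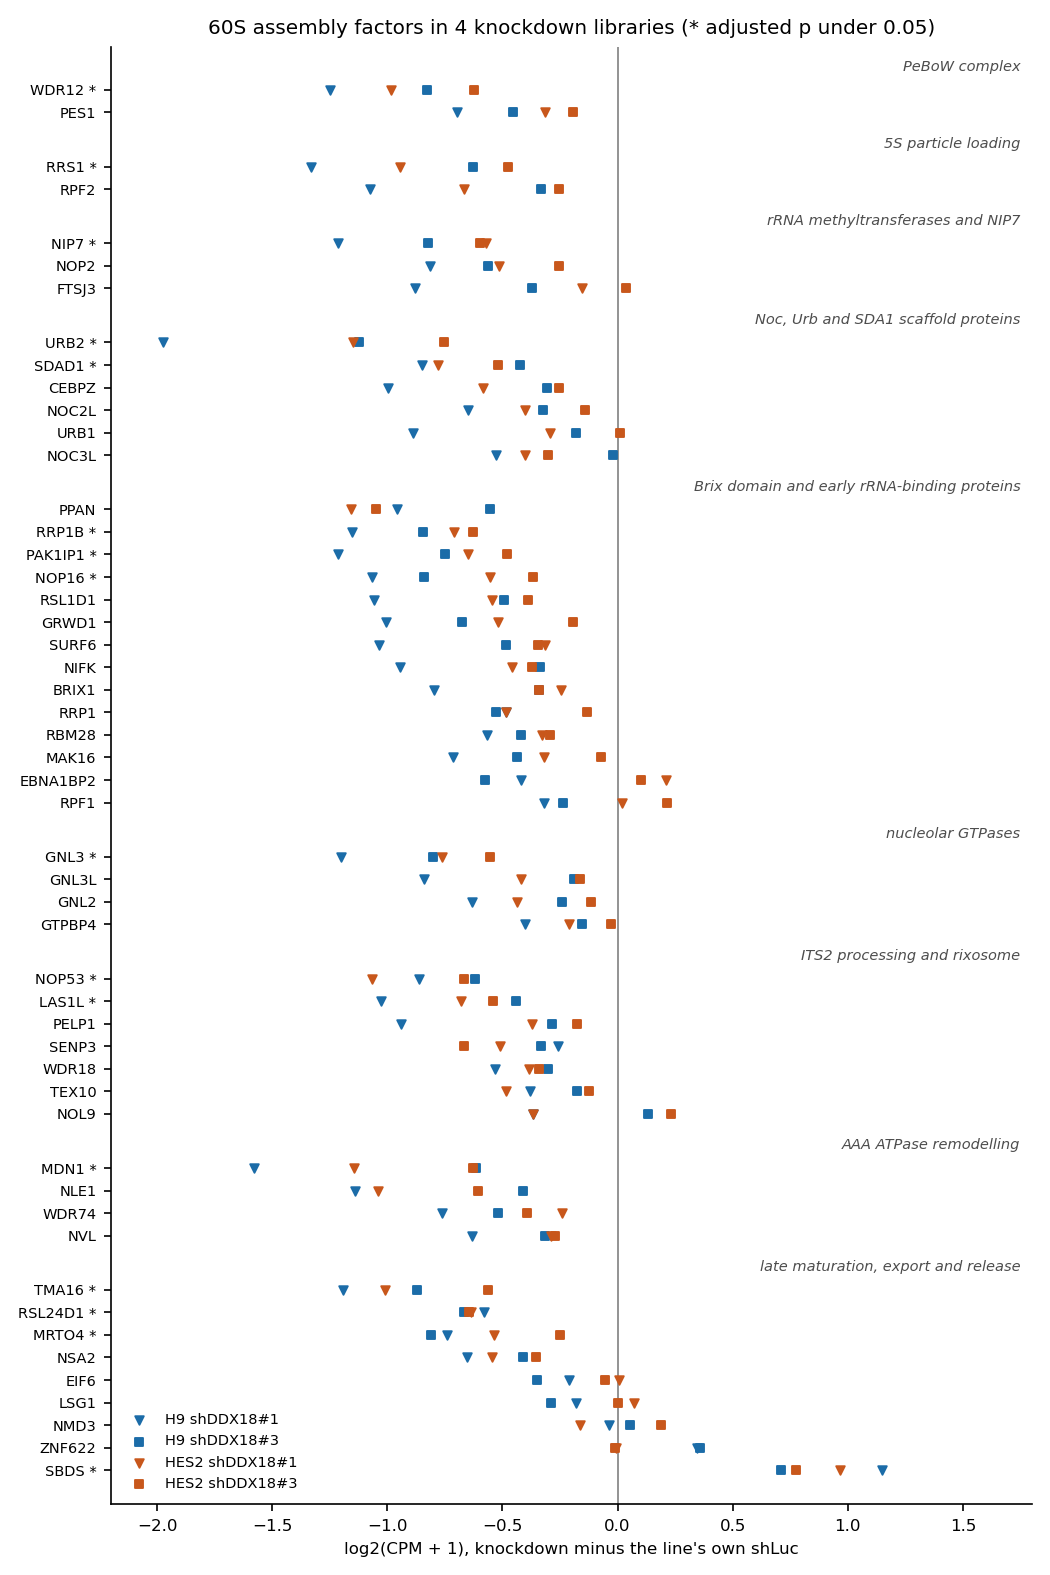
Each row is 1 of the 51 members, grouped by role, and each mark 1 knockdown library (blue H9, orange HES2; triangle shDDX18#1, square shDDX18#3) as log2(CPM + 1) minus that of the same line's shLuc library on the horizontal axis. Most marks lie left of 0, and SBDS in the last row is the member with all 4 marks furthest to the right.

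Counted together, the members took 0.554% of reads in both shLuc libraries. Their summed level in H9 was 5599 CPM in the control, 3129 with shDDX18#1 and 4058 with shDDX18#3, and in HES2 it was 5291, 3652 and 4224 CPM. Relative to the same line's control the sum was 55.9% (H9) and 69.0% (HES2) with shDDX18#1 and 72.5% (H9) and 79.8% (HES2) with shDDX18#3. The median log2 change of the members was -0.81 in H9 shDDX18#1, -0.42 in H9 shDDX18#3, -0.48 in HES2 shDDX18#1 and -0.29 in HES2 shDDX18#3, with 49, 47, 46 and 43 members below their own shLuc. Falls past -1 numbered 16 in H9 shDDX18#1, 6 in HES2 shDDX18#1 and 1 in each shDDX18#3 library.

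Below, levels are given in CPM in the order shLuc, shDDX18#1 and shDDX18#3, fold changes are log2 of knockdown over shLuc on the log2(CPM + 1) scale, and adjusted p-values are from limma.

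PES1 and WDR12 form with BOP1 the PeBoW complex, which is needed to process the precursor of the large subunit RNA. WDR12 was at 80.8, 33.5 and 45.1 CPM in H9 and at 94.6, 47.3 and 61.0 CPM in HES2. Its knockdown libraries lay clearly below both controls, with a fold change of -0.92 (SE 0.19, adjusted p = 0.0183). PES1 was at 180.0, 111 and 131 CPM in H9 and at 171, 137 and 149.5 CPM in HES2. Its groups did not overlap either, but its fold change of -0.42 missed the threshold (adjusted p = 0.0949), and it passed with shDDX18#1 alone (-0.51, adjusted p = 0.0343).

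RPF2 and RRS1 bring the 5S ribosomal RNA with its bound proteins into the early particle. RRS1 was at 82.8, 32.3 and 53.2 CPM in H9 and at 71.5, 36.7 and 51.2 CPM in HES2, a fold change of -0.85 (SE 0.24, adjusted p = 0.0456). RPF2 was at 64.0, 29.8 and 50.6 CPM in H9 and at 62.4, 38.9 and 52.1 CPM in HES2. In both genes the shDDX18#1 libraries were the lowest of each line and no knockdown library reached a control. RPF2 had -0.58 over both hairpins (adjusted p = 0.128) and fell with shDDX18#1 (-0.87, adjusted p = 0.00809).

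NIP7, which works in precursor processing, was at 66.7, 28.2 and 37.3 CPM in H9 and at 64.2, 42.8 and 42.0 CPM in HES2. It fell by 0.80 on the log2 scale (SE 0.19, adjusted p = 0.0267), with the 2 hairpins close together in HES2. NIP7 exons overlap those of COG8 on the opposite strand for 20.2% of their length. COG8 stood at -0.16 in knockdown (adjusted p = 0.536), and its part in the NIP7 values was not tested. NOP2, a cytosine methyltransferase of the large subunit RNA, was at 136, 76.8 and 91.4 CPM in H9 and at 119.6, 83.3 and 99.97 CPM in HES2. Its groups were apart, its fold change was -0.54 (adjusted p = 0.0555), and it passed with shDDX18#1 (adjusted p = 0.0128). NOP2 exons are shared for 54.4% of their length with an annotated gene on the same strand, AC006064.6, so its reads may have been divided. The FtsJ-like methyltransferase FTSJ3 overlapped between groups, with 152.9 CPM in HES2 shDDX18#3 against 149 in HES2 shLuc (-0.34, adjusted p = 0.264).

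Among the Noc, Urb and SDA1 proteins, large scaffolds of early particles, 2 of 6 fell, URB2 and SDAD1. URB2 was at 83.1, 20.4 and 37.6 CPM in H9 and at 77.6, 34.4 and 45.7 CPM in HES2. The 4 knockdown libraries held 24.6% to 58.9% of their own control, and the fold change was -1.25 (SE 0.27, adjusted p = 0.0215). SDAD1 was at 86.1, 47.4 and 63.9 CPM in H9 and at 103, 59.5 and 71.6 CPM in HES2 (-0.64, SE 0.17, adjusted p = 0.0411). CEBPZ, the relative of yeast Noc1, was at 210.1, 105 and 169.9 CPM in H9 and at 146, 97.2 and 123 CPM in HES2, so H9 shDDX18#3 stood above HES2 shLuc. NOC2L was at 198, 126 and 158 CPM in H9 and at 195, 147 and 176 CPM in HES2. URB1 was at 106, 56.8 and 93.4 CPM in H9 and at 75.6, 61.5 and 76.0 CPM in HES2, with overlapping groups. These last 3 genes passed with shDDX18#1 (-0.79, -0.53 and -0.59) but not over both hairpins, and NOC3L, at -0.31, passed in neither.

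The Brix domain and other early RNA-binding proteins are the most numerous class, and 3 of 14 fell, RRP1B, NOP16 and PAK1IP1. RRP1B, a nucleolar protein that targets protein phosphatase 1, was at 211, 94.3 and 117 CPM in H9 and at 212, 129 and 137 CPM in HES2. Its controls nearly coincided, and its fold change was -0.83 (SE 0.15, adjusted p = 0.0137). NOP16 was at 102, 48.2 and 56.4 CPM in H9 and at 70.4, 47.6 and 54.3 CPM in HES2 (-0.71, SE 0.17, adjusted p = 0.0323). PAK1IP1, a WD-repeat protein, was at 62.8, 26.5 and 37.0 CPM in H9 and at 58.6, 37.0 and 41.8 CPM in HES2 (-0.77, SE 0.20, adjusted p = 0.0357). In all 3 the fall was larger in H9 than in HES2 with each hairpin. The related RRP1 gene stood at -0.41 (adjusted p = 0.121).

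Of the same class GRWD1, NIFK, RSL1D1 and SURF6 passed with shDDX18#1 only. GRWD1, a histone-binding chaperone that also escorts a ribosomal protein, was at 112, 55.5 and 70.0 CPM in H9 and at 98.1, 68.2 and 85.8 CPM in HES2. NIFK, which binds the proliferation antigen Ki-67, was at 83.3, 42.9 and 65.8 CPM in H9 and at 80.9, 58.6 and 62.4 CPM in HES2. RSL1D1 was at 316, 151 and 224 CPM in H9 and at 260.4, 178 and 199 CPM in HES2. SURF6 was at 132, 64.1 and 94.3 CPM in H9 and at 112, 89.8 and 87.7 CPM in HES2. The 4 genes had fold changes with shDDX18#1 between -0.67 and -0.80, and no knockdown library of theirs reached a control. PPAN had the lowest level, 3.32, 1.23 and 1.95 CPM in H9 and 6.26, 2.25 and 2.51 CPM in HES2, and at -0.93 (adjusted p = 0.0786) did not pass. The annotated PPAN exons are shared for 56.0% of their length with the read-through gene PPAN-P2RY11, so its reads may have been divided. RPF1 and EBNA1BP2 had opposite signs in the lines and did not pass. RPF1 held 79.7% and 84.5% of the control in H9 and 101% and 116% in HES2, and EBNA1BP2 held 74.5% and 66.7% in H9 and 116% and 107% in HES2.

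**Figure D2:**
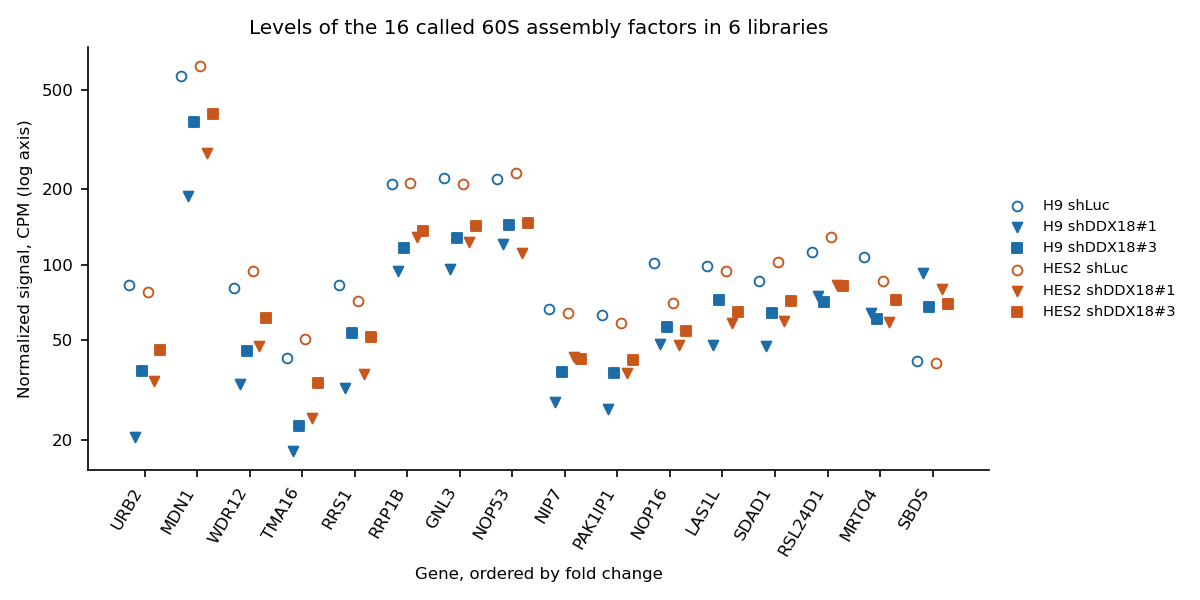
Normalized signal in CPM (log axis) of the 16 called members in the 6 libraries, ordered by fold change from URB2 to SBDS, with open circles for shLuc, triangles for shDDX18#1, squares for shDDX18#3, blue for H9 and orange for HES2. The open circles lie above the filled marks for the 15 genes that fell and below them for SBDS.

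GNL3 (nucleostemin), a nucleolar GTPase abundant in stem cells, was at 223, 96.4 and 127 CPM in H9 and at 210.4, 124 and 143 CPM in HES2. It was the GTPase of the 4 that fell over both hairpins, by 0.83 on the log2 scale (SE 0.17, adjusted p = 0.0184). GNL2, which checks the particle before export, was at 119, 76.4 and 100.5 CPM in H9 and at 129.7, 95.6 and 119 CPM in HES2. Its groups overlapped and it passed with shDDX18#1 (-0.54, adjusted p = 0.0236). GTPBP4 at -0.20 and GNL3L at -0.40 passed in no comparison.

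In the group that cuts the second internal spacer of the precursor (ITS2) and that holds the rixosome, 2 of 7 fell, LAS1L and NOP53. LAS1L, the endonuclease that makes this cut, was at 98.6, 47.8 and 72.3 CPM in H9 and at 94.3, 58.6 and 64.6 CPM in HES2 (-0.67, SE 0.19, adjusted p = 0.0463). NOP53, which links the particle to the RNA exosome, was at 221, 121 and 144 CPM in H9 and at 234, 111 and 147 CPM in HES2 (-0.80, SE 0.16, adjusted p = 0.0177). It was a gene with a larger change in HES2 than in H9 with each hairpin. NOL9, the polynucleotide kinase that partners LAS1L, was at 27.1, 20.8 and 29.8 CPM in H9 and at 33.1, 25.4 and 39.0 CPM in HES2. Both shDDX18#1 libraries of NOL9 were below and both shDDX18#3 libraries above their control, and its fold change was -0.093 (adjusted p = 0.815). Of the rixosome proteins, PELP1 was at 187, 97.2 and 154 CPM in H9 and at 156, 121 and 138 CPM in HES2. TEX10 was at 125, 96.0 and 111 CPM in H9 and at 115, 82.1 and 106 CPM in HES2. Both passed with shDDX18#1 only (adjusted p = 0.0211 and 0.0487), and the SUMO protease SENP3 (-0.44) and WDR18 (-0.39) passed in neither. SENP3 shares 41.2% of its exon length with the read-through gene SENP3-EIF4A1.

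MDN1 (midasin), the giant AAA ATPase that pulls factors off the particle, was at 568, 189 and 371 CPM in H9 and at 622, 281 and 402 CPM in HES2. It fell by 0.99 on the log2 scale (SE 0.27, adjusted p = 0.0429), and its shDDX18#1 libraries held 33.3% and 45.1% of their control against 65.3% and 64.6% with shDDX18#3. NLE1, a substrate of midasin, was at 54.3, 24.1 and 40.5 CPM in H9 and at 58.6, 28.0 and 38.1 CPM in HES2. Its groups were apart, with -0.80 over both hairpins (adjusted p = 0.0554) and -1.09 with shDDX18#1 (adjusted p = 0.00313). The ATPase NVL (-0.38) and its partner WDR74 (-0.48) were lower in all 4 knockdown libraries than in both controls but passed in no comparison.

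The late factors were the group with the median nearest 0, at -0.15, against medians of -0.38 to -0.71 in the other 8 groups. Of these 9 genes 3 fell, 1 rose and 5 did not pass. MRTO4, which holds the place of the stalk protein on the particle, was at 108, 64.1 and 60.9 CPM in H9 and at 86.3, 59.2 and 72.4 CPM in HES2 (-0.58, SE 0.16, adjusted p = 0.0456). RSL24D1, the placeholder for a late ribosomal protein, was at 113, 75.1 and 70.7 CPM in H9 and at 129, 82.7 and 82.1 CPM in HES2 (-0.63, SE 0.13, adjusted p = 0.0196). Its 4 knockdown libraries held 62.7% to 66.7% of their own control, the narrowest range among the genes that fell. TMA16 was at 42.4, 18.0 and 22.7 CPM in H9 and at 50.3, 24.5 and 33.7 CPM in HES2 (-0.91, SE 0.21, adjusted p = 0.0249). NSA2 was at 88.6, 55.9 and 66.5 CPM in H9 and at 88.3, 60.2 and 68.8 CPM in HES2, and passed with shDDX18#1 only (-0.60, adjusted p = 0.0179). NSA2 exons overlap those of FAM169A on the opposite strand for 51.2% of their length, and reads of such a pair cannot be told apart without strand. FAM169A itself stood at -0.61 in knockdown (adjusted p = 0.0784), and its part in the NSA2 values was not tested.

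The factors of export and cytoplasmic maturation had fold changes near 0 and did not pass, apart from SBDS. The export adaptor NMD3 was at 46.5, 45.3 and 48.3 CPM in H9 and at 37.6, 33.5 and 42.9 CPM in HES2 (0.010, SE 0.17, adjusted p = 0.973). LSG1, the GTPase that releases NMD3, had -0.098 (SE 0.14), ZNF622, another cytoplasmic factor, 0.17 (SE 0.17), and EIF6, which keeps the subunits from joining too early, -0.15 (SE 0.15), with overlapping groups in all 3. Missing the threshold does not show that these levels were the same.

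SBDS, which together with a GTPase evicts EIF6 from the finished subunit, was at 41.3, 92.7 and 68.1 CPM in H9 and at 40.5, 80.1 and 69.9 CPM in HES2. Every knockdown library was above both controls, with 225% and 165% of the control in H9 and 198% and 173% in HES2. It was the only member called higher, at 0.90 (SE 0.17, adjusted p = 0.0151), and passed with each hairpin (1.06 and 0.74, adjusted p = 0.002 and 0.0218). A related pseudogene, SBDSP1, was at 21.0, 23.3 and 25.3 CPM in H9 and at 13.4, 20.6 and 22.3 CPM in HES2 (0.42, adjusted p = 0.192), so the split of reads between the pair is uncertain. Their sum stood at 186% and 150% of the control in H9 and at 187% and 171% in HES2. SBDS also shares 208 exon bases with TYW1 on the opposite strand, and TYW1 had a fold change of 0.012 (adjusted p = 0.972).

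**Figure D3:**
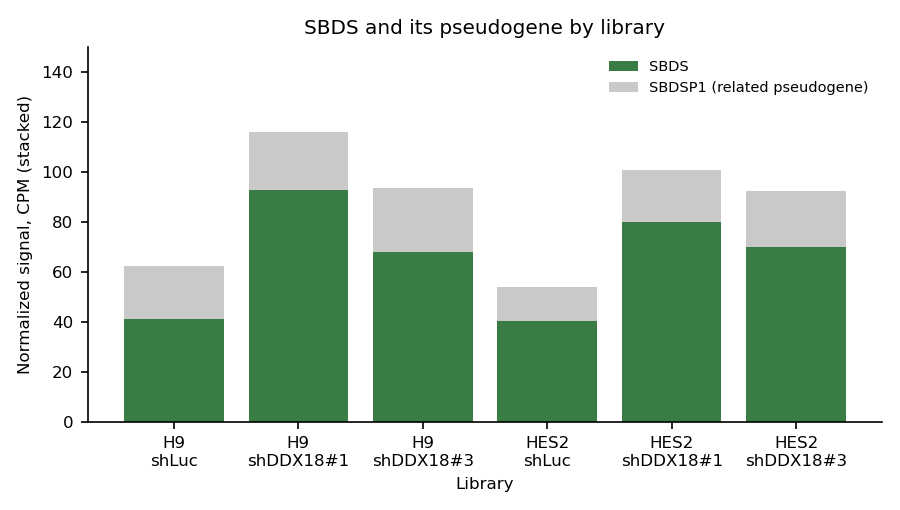
Stacked bars give the normalized signal in CPM of SBDS (green) and its pseudogene SBDSP1 (grey) in each of the 6 libraries, 1 bar per library. The SBDS part lies at 41.3 and 40.5 CPM in the shLuc libraries and between 68.1 and 92.7 CPM in the 4 knockdown libraries.

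Hairpin by hairpin, shDDX18#1 against shLuc called 30 members lower and 1 higher, where 13.4% and 14.4% of all genes (27.8% together) were, with a member median of -0.61. For shDDX18#3 the counts were 8 lower and 1 higher, where 3.69% and 6.96% of all genes (10.6% together) were, with a median of -0.35. All 9 members called with shDDX18#3 were among the 31 of shDDX18#1. GNL3, MDN1, NOP53, RRP1B, RSL24D1, TMA16, URB2 and WDR12 were lower and SBDS was higher with each. Both comparisons use the same shLuc libraries. DDX18 itself stood at 12.6% and 24.5% of its control with shDDX18#1 and at 31.0% and 37.6% with shDDX18#3, and the level of 38 members was lower with shDDX18#1 than with shDDX18#3 in both lines, where 33.6% of all genes were. Tested directly, the hairpins differed in 0 members and 0.0% of all genes (limma; 13 members and 14.3% of all genes at an unadjusted p under 0.05, and 0 members with edgeR or DESeq2). The median member was higher by 0.26 with shDDX18#3, with a smallest adjusted p of 0.129 and standard errors of 0.14 to 0.37. The counts for each hairpin also move with single libraries and tools, as the last section describes. Counts over all genes in those fits, and in the edgeR and DESeq2 tests between hairpins, are not given here. These moves therefore cannot be read as particular to the members.

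The lines were compared gene by gene. Over the 51 genes the mean change of the 2 hairpins in H9 and that in HES2 correlated across genes with Pearson r of 0.815 and Spearman rho of 0.797, and without SBDS with 0.737 and 0.784, against 0.648 and 0.624 over all genes tested. These sets differ in level: a gene needed only 1 CPM in 2 libraries to be tested, whereas 50 members stood above 10 CPM in all 6. What this adds to the gap in correlation was not tested. The lines share no library, though both hairpins of a line share its control. The median change of the members was -0.62 in H9 and -0.36 in HES2, and 41 members had the lower mean in H9. The 4 genes with opposite signs in the lines were EBNA1BP2, LSG1, RPF1 and ZNF622. In HES2, however, ZNF622 held 99.4% and 99.1% of the control and LSG1 105.2% and 100.2%, so their signs there rest on small changes. A test of the difference itself called 0 members and 0.0% of all genes (limma interaction term, 0 members and 788 genes at an unadjusted p under 0.05; 0 members with edgeR or DESeq2), with a median difference of 0.23 and a median SE of 0.36. HES2 and H9 differed in level in 0 members, where 5.42% of all genes were called, 3.98% lower and 1.44% higher in HES2 (limma, 4 members and 21.1% of all genes at an unadjusted p under 0.05, and 0 members with edgeR or DESeq2). For edgeR and DESeq2 the counts over all genes in these tests are not given, so their 0 members have no share to be set against.

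**Figure D4:**
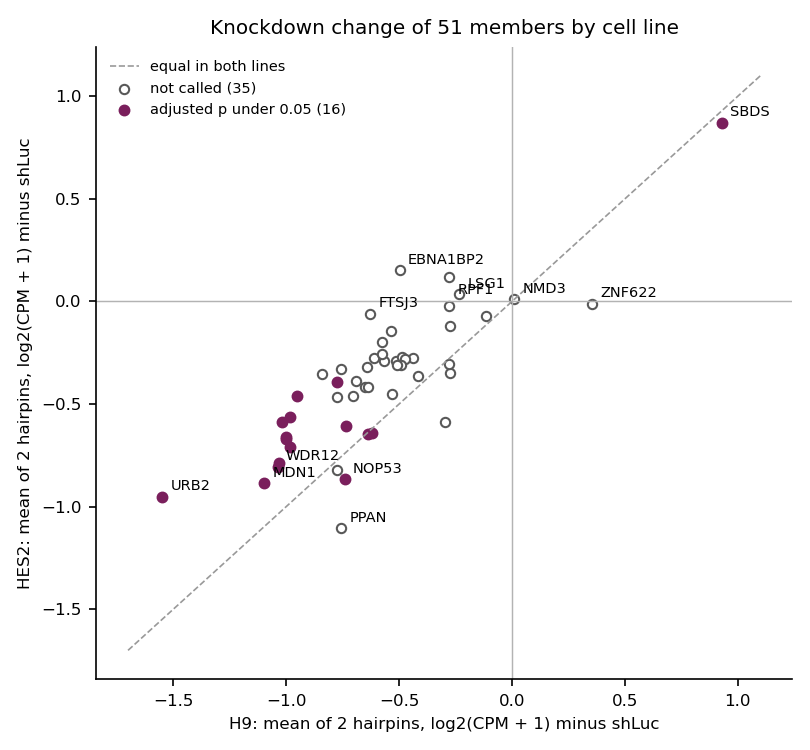
Each point is 1 of the 51 members, with its mean log2(CPM + 1) change over the 2 hairpins against shLuc in H9 on the horizontal axis and in HES2 on the vertical axis, filled where the knockdown comparison called it and with a dashed line of equal change. Most points lie above the dashed line to the left of 0, with URB2 lowest in H9 and SBDS alone at the upper right.

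Per length, the members spanned a wide range of levels in the control libraries. The mean shLuc level per kilobase of annotated exon was highest for GNL3, at 67.1 CPM per kb in H9 and 63.4 in HES2, and CEBPZ, RSL1D1, EIF6 and RRS1 followed with means of 49.1, 46.7, 46.5 and 45.2. Each of these 4 differed more between the lines than their means did from one another, so their order is not resolved. The lowest means per kb were PPAN at 1.85, NOL9 at 4.13 and RBM28 at 4.39. Length here is that of the merged exons of all annotated transcripts of a gene, 15866 bases for RBM28. It can exceed the length of any single transcript, which lowers the level per kb, and reads of PPAN may have been divided. MDN1 had the most reads of any member but, with its long transcript, a level of 32.0 CPM per kb.

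The medians of related lists also lay below 0. Beside the counts that follow, 6.26% of all genes tested were called lower in knockdown and 9.6% higher. Of 19 other factors of the large subunit, 2 were called lower, DDX18 and the helicase DDX51 (-0.64), with a median of -0.29, and the export receptor XPO1 stood at -0.66 (adjusted p = 0.0611). Of 17 genes of the RNA exosome and related exonucleases, which trim the precursor, 2 fell, EXOSC7 (-0.91) and EXOSC9 (-0.96), with a median of -0.37, and EXOSC2 stood at -0.70 (adjusted p = 0.0682). Of 50 assembly factors of the small subunit 11 fell, among them the acetyltransferase NAT10 (-1.33), TBL3 (-0.76) and WDR75 (-0.82), with a median of -0.43. Of 47 ribosomal protein genes of the large subunit 27 fell, among them RPL3 (-1.13), RPL10A (-0.98) and RPL29 (-0.73), with a median of -0.57. No gene of these 4 lists was called higher.

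**Figure D5:**
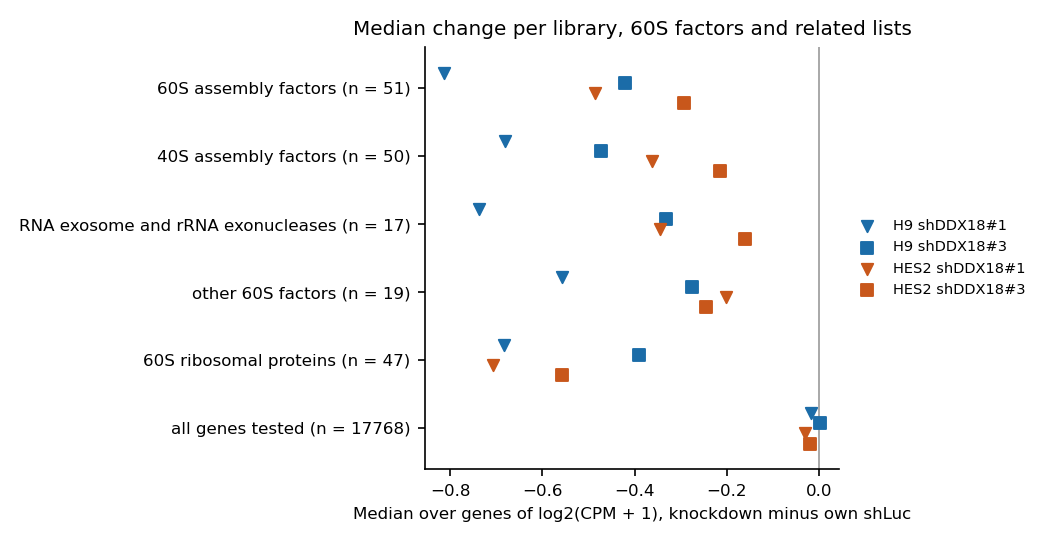
Median over the genes of a list of log2(CPM + 1) in a knockdown library minus the same line's shLuc library (horizontal axis), 1 row per list with its number of genes, and 1 mark per knockdown library. The 5 ribosome-related lists lie left of 0 in all 4 libraries, the assembly factors of the large subunit between -0.81 and -0.29, while the medians of all genes tested lie close to 0.

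Because 48 of the 51 fold changes lay below 0, the promoters were searched for 4 motifs on both strands. RefSeq promoter windows (assembly GRCh38.p14, 250 bases before to 50 after the start) were found for 45 of the 51 members. The E-box CACGTG, the sequence that MYC and related factors bind, lay in 14 of the 45 (31.1%), against 7.43% of 27305 promoters. The ETS-type motif CCGGAAGT lay in 14 (31.1%), against 4.44%, and 1 member, NOC3L, had both. Among promoters of genes tested here the shares were 9.59% and 7.83%. The other motifs searched, longer palindromes known as the CGCG element and the NRF1 motif, lay in 1 member (2.22%, against 0.469%) and in 0 (against 1.36%). Of the 14 members with the E-box, 5 fell over both hairpins, with a median of -0.54, and of the 31 without it 7 did, with a median of -0.41. With the ETS-type motif 2 of 14 fell (median -0.39) and without it 10 of 31 (median -0.53). Over all genes tested 6.26% were called lower, but the shares with and without each motif were not computed. These matches are a description of the letters in the windows, and a link of a motif to the falls was not tested.

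The E-boxes of GNL2, MRTO4, NLE1, NOC3L, NOP2, PAK1IP1, PES1 and TMA16 do not lie wholly within the 250 bases before the start. Of these MRTO4, PAK1IP1 and TMA16 fell, so the E-box genes shown are not typical of those with the motif. The 250 bases before the start are shown for 3 genes that fell and carry such a motif there, and for SBDS, which rose and carries none of the 4. They are written along the gene's strand, 5′ to 3′, with the motif in capitals: the E-box in MDN1 (chr6:89819795-89820044, minus strand) and SDAD1 (chr4:75990946-75991195, minus strand), the ETS-type motif, read on the other strand, in RSL24D1 (chr15:55196942-55197191, minus strand), and SBDS at chr7:66995587-66995836, minus strand.
MDN1: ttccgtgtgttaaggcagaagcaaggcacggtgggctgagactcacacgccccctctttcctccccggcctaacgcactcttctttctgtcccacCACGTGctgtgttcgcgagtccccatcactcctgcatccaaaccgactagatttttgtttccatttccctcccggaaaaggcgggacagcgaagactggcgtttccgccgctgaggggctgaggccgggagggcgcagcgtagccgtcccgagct
SDAD1: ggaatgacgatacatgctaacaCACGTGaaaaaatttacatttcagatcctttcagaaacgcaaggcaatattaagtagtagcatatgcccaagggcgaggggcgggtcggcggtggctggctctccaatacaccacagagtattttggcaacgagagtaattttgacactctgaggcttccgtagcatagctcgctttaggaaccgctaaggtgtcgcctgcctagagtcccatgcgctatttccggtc
RSL24D1: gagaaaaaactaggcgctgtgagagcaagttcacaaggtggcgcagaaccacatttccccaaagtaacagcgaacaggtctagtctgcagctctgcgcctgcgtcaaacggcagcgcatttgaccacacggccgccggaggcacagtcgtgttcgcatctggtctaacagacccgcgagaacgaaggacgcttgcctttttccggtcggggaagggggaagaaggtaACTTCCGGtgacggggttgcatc
SBDS: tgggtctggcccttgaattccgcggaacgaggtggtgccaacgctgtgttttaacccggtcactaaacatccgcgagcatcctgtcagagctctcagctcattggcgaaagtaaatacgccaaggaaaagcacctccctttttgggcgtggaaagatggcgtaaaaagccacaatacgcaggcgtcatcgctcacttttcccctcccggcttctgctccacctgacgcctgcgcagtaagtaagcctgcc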

How the data were processed

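Libraries were made with a TruSeq kit from total RNA, per the labels' protocols, which do not say that strand was kept. The submitters' processing notes name the build hg19 and the tools HTSeq 0.11.2, Bowtie2 2.3.4.3, edgeR 3.26.8 and SAMtools 1.9, with no role stated for each. The authors deposited 1 table with a normalized signal per library. For knockdown against shLuc the authors' table also gives log2 values (a fold change and a mean abundance), p-values with their false discovery rates, and a likelihood ratio score, of which the score and the abundance were not used here. Tested on the table, 100% of the deposited signal values were whole reads (within 0.001 of a read) once divided by the value of 1 read, so the signal is CPM, counts scaled to an effective library size. Recovered totals were 3647530, 2668179 and 3178058 reads in H9 (shLuc, shDDX18#1, shDDX18#3) and 4271741, 2966308 and 3391529 in HES2. A count of 3 reads lay between 0.671 and 1.23 CPM.

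The 17768 genes that reached 1 CPM in 2 or more libraries were fitted on log2(value + 1) in R 4.3.3 with limma 3.58.1, using its intensity trend, Benjamini-Hochberg adjustment over all of them and a threshold of 0.05. Fold changes on this scale understate those of low genes. The knockdown comparison set 4 libraries against 2 shLuc libraries with the cell line as a block, since the labels give the same 2 lines in each arm and the deviations of same-line libraries from the arm means correlated at 0.363, 0.454 and 0.654. Further models took each hairpin, the hairpins against each other, the lines, and the interaction of line and knockdown. On simulated reads for the knockdown comparison over 17395 genes, 83% of 2-fold and 100% of 4-fold changes were recovered, with 7 false calls. The simulation gave every gene the same dispersion, the lines no difference, and all 4 knockdown libraries the same change. Changes were planted only in genes with more reads, so these rates may not hold for the real libraries. Exon lengths came from GENCODE 29 on GRCh38. By that annotation 26 members share exon bases with an opposite-strand gene of the deposited table, and only some of these are described above.

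The members and gene lists were chosen with earlier results of these data known. Named were all members called in any comparison, in each role group those with the smallest p, the extreme fold changes or the extreme levels per length, and the 3 genes of each other list with the smallest p. Further members are given by their fold change. The alternatives varied the pseudocount (0.25 or 4), the filter (none or 5 CPM), the scaling (quantile or equal medians), the trend and the block, replaced limma by edgeR 4.0.16 or DESeq2 1.42.0 run on recovered reads, and left out each library in turn.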

Additional observations from a re-analysis of the deposited data

Results flagged for a closer look

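NVL, the ATPase that remodels late nucleolar particles, was flagged because its level in H9 shDDX18#3, 46.0 CPM, lay apart from 36.8, 37.6 and 38.1 CPM in H9 shDDX18#1, HES2 shDDX18#1 and HES2 shDDX18#3. On the log2(CPM + 1) scale the gap to the nearest library was 0.835 of the range, over Dixon's critical value for 4 samples. This rule pools the lines, whose controls differed, at 57.6 CPM in H9 and 46.3 CPM in HES2. Against its own control H9 shDDX18#3 stood at 79.9%, beside 81.4% and 82.4% in HES2, and H9 shDDX18#1 at 63.8%. Of 69 genes looked at in this way 1 was flagged, and chance flags about 1 in 20 groups.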

How the results depend on the processing

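The median fold change of the members in the knockdown comparison stayed below 0 in each of the 16 alternatives, between -0.62 and -0.36, and their summed level in knockdown relative to shLuc was 69.2% as deposited and 68.2% as a share of recovered reads. Counts of called members moved more. For the single hairpins, counts over all genes under these settings are not given. A shift over all genes there cannot be told from one in the members. From 16 in the knockdown comparison, 31 with shDDX18#1 and 9 with shDDX18#3, they went to 0, 12 and 0 without the intensity trend, and to 6, 18 and 0 with no replicate block for the cell line. DESeq2 gave 19 with shDDX18#1 and 2 with shDDX18#3. Leaving out 1 library gave 0 to 19 in the knockdown comparison, 11 to 33 with shDDX18#1, 0 to 14 with shDDX18#3 and 0 to 1 between the hairpins, and a lone library of an arm is then assumed to vary like the others. On the recovered reads edgeR called all 16 members of the knockdown comparison (1717 genes higher and 1189 lower over the table) and DESeq2 15 of them. Without either shLuc library the interaction could not be fitted, and the line and interaction comparisons have no fit without a block. Scaling to equal medians moved the median of all genes from -0.018 to -0.12, and the share of calls that were higher went from 60.5% to 45.9%, 72.1% without the trend. Directions reversed only in members that did not pass, and leaving out 1 library could not reverse the called ones. Over the libraries left out, EBNA1BP2 ran from -0.50 to 0.15, LSG1 from -0.23 to 0.037, NMD3 from -0.0645 to 0.085, NOL9 from -0.22 to 0.032, RPF1 from -0.28 to 0.12 and ZNF622 from -0.011 to 0.35. NMD3 also stood at -0.015 with quantile scaling and at -0.090 with equal medians. The cause of these changes was not tested. Depth limits PPAN, which had 3 to 28 reads per library, and 2 libraries per arm limit every test.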
